A study of Saccharomyces cerevisiae with 8 samples.

Results

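The comparison set yeast cells sampled at 21, 22 and 23 h of growth against cells of the same course sampled at 16, 17 and 19 h. The 6 arrays were chosen by their labelled hour from the 8 of the series, with 3 in each group, and those recorded at 20 h and 24 h were left out. All cells were the laboratory strain S288C of Saccharomyces cerevisiae, grown in batch in minimal medium, with no mutation or added agent named in the labels for either group. On every 2-colour array Cy5 carried RNA of that hour's cells, labelled as exponentially growing, and Cy3 carried a common RNA, from cells aged 64 h, with the dyes never swapped. The log2 ratio is that of Cy5 over Cy3 for 1 gene, so 0 means the level of the 64 h cells, and the difference given below is the mean ratio of the 3 later arrays minus that of the 3 earlier ones. A difference of 1 is therefore 2-fold. Hours are those of the labels. Numbers in the deposited files' own names differ from the labelled hours for some arrays but put the 6 arrays in the same order, so the length of a step between hours is uncertain. The arrays of a group are different hours, and nothing in the labels says that they came from separate cultures. The p-values therefore measure only the spread between these arrays, which holds both technical scatter and any change within a group.

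In a batch culture yeast first takes up glucose quickly through low-affinity transporters and ferments it, while glucose represses the genes for respiration and for other carbon sources. As glucose runs down, repression eases, reserve carbohydrates such as glycogen build up, and genes of the general stress response and of respiration are turned on while ribosome production slows. Iron uptake genes form another programme: the transcription factors Aft1 and Aft2 turn them on when cells are short of iron, a metal that respiratory enzymes contain.

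Each array held 12512 gene spots, of which Cy5 exceeded background clearly in 84.1% to 91.6% and Cy3 in 89.5% to 91.1%, and the 16 h array had the lowest Cy5 share. The arrays lay on 2 slides, each scanned in its own session. Slide 1 held 22 and 23 h of the later group and 16 and 19 h of the earlier group, and slide 2 held 21 h and 17 h. The closest pair of ratio profiles across genes crossed the groups and shared a slide, 21 h with 17 h, at a correlation of 0.9845 (a description across genes, which are not independent). Of the mating-type markers, the alpha-specific SAG1 was above background in Cy5 on 6 of 6 arrays and MF(ALPHA)1 on 0, and the a-specific STE6 on 6, so they did not settle the mating type.

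With limma, 65 of 5660 genes tested passed an adjusted p of 0.05 (1.15%), 48 of them higher at 21 to 23 h (0.848%) and 17 lower (0.3%). A change of 2-fold or more was seen in 21 of the genes that rose and in 5 of those that fell. Genes of iron uptake, the general stress response and glycogen were among those that rose, and the glucose transporter gene HXT1 had the largest fall. The later and earlier arrays did not overlap for any of the 65. The same held for 1216 of all genes tested (21.5%), the later arrays being higher in 640 (11.3%) and lower in 576 (10.2%). Groups that do not overlap must have the same sign on both slides, so the equal signs of the 65 on the slides add nothing. An exact permutation test of 3 against 3 arrays cannot go below 0.1, so the calls rest on limma's pooling of the spread over genes. A fit with slide as a block called 219 (3.87%), 156 higher (2.76%) and 63 lower (1.11%). Within slide 1 alone 206 were called (3.64%), 145 higher (2.56%) and 61 lower (1.08%). All 65 were among the 219, and 64 among the 206.

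The count depended on single arrays. It was 8 without the 16 h array, 48 without 17 h, 38 without 19 h, 272 without 21 h, 9 without 22 h and 15 without 23 h. The 21 h array is the later one on slide 2. Under the scanner software's own ratios 3 genes were called, all higher, there were 0 under the authors' value table (limma, with 1357 at an unadjusted p under 0.05), and under median centring 25 were higher and 17 lower. All 65 kept their sign under the scanner software's ratios and under median centring. So did the 64 that the authors' table holds, but its values are not independent of the scanner software's ratios. In the fits that left out an array the sign could not change, because the groups did not overlap. The 7 genes called whichever array was left out were FIT2, FIT3, ARN1, ARN2, TIS11, PHM7 and GAC1. Of the others, DDR2 was called in 4 of the 6 such fits, CCC2, MIG3 and GNP1 in 3, and FTR1 and SNZ1 in 2, and 20 of the 65 genes were called in only 1. Median centring kept 39 of the 65 calls, and leaving out the background correction kept 58. Among the genes named by the rule given below, median centring ended the calls of FTR1, PGM2, HSP12, SPS19, HXT5 and DBP2. Leaving out the background correction ended those of GNP1, HSP12, SPS19 and HXT5. The bars of genes called by setting show these counts.

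**Figure D1:**
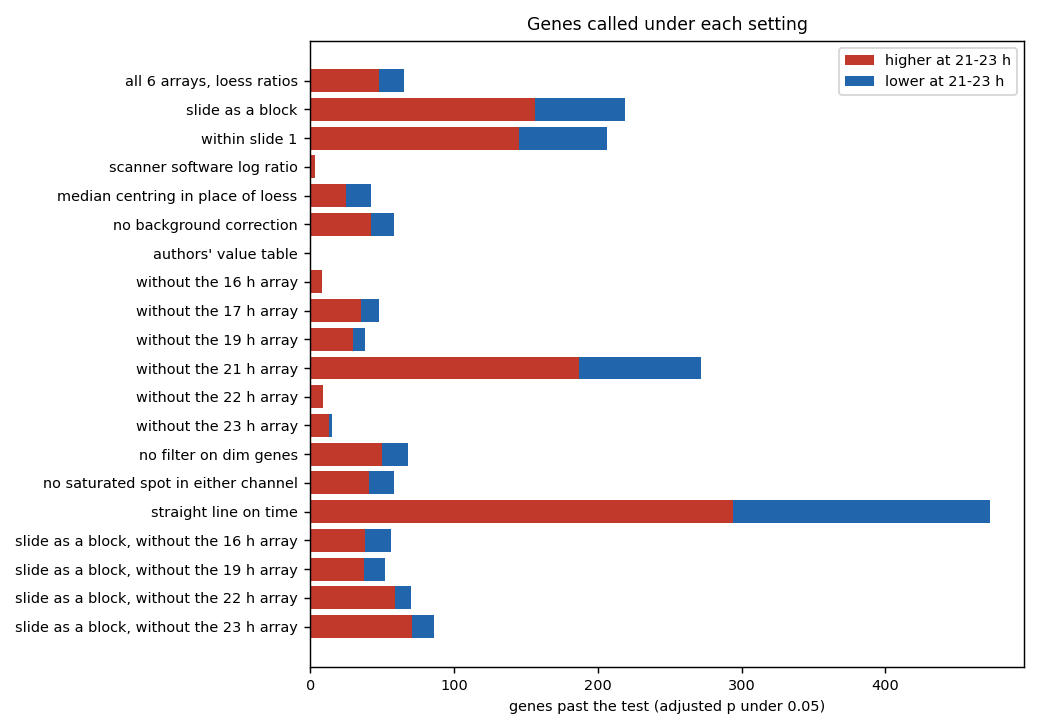
Number of genes past the test (adjusted p under 0.05, horizontal axis) under each setting, split into genes higher (red) and lower (blue) at 21 to 23 h. The bar for all 6 arrays holds 65 genes, that without the 21 h array 272 and that for the authors' table none.

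**Figure D2:**
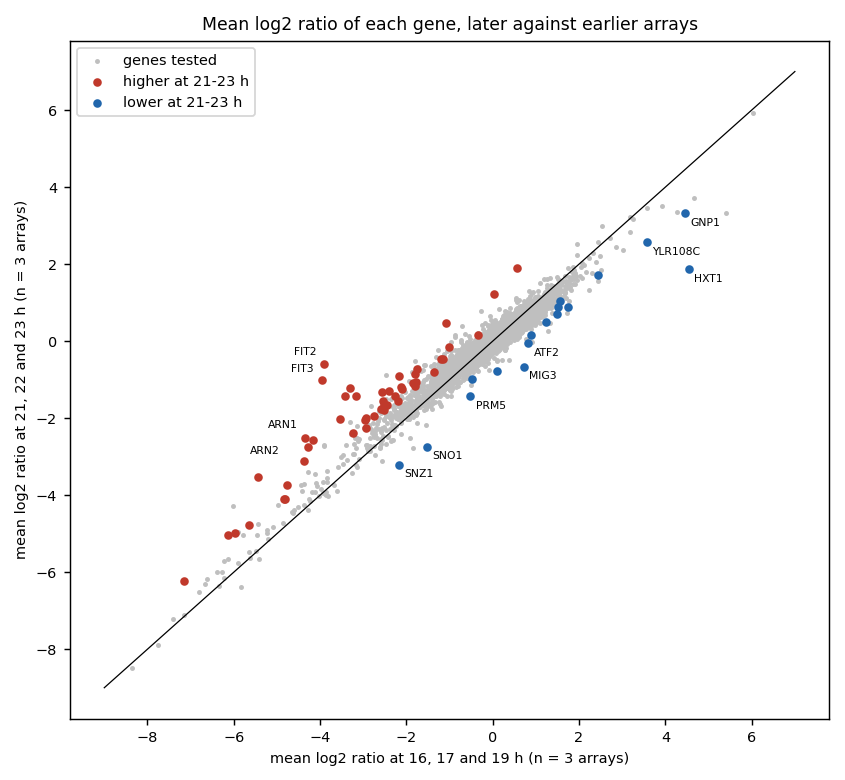
Mean log2 ratio of each tested gene over the arrays at 21, 22 and 23 h (vertical axis) against the mean over those at 16, 17 and 19 h (horizontal axis), with genes past the test in red (48 higher, HXT7 included) and blue (17 lower). The line marks equal means. Of the 48 red genes 46 had an earlier mean ratio below 0.

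The Cy3 channel carried the 64 h RNA on every array and so gives a background for that channel alone. It cannot show scatter from sampling each hour's cells or from labelling their RNA with Cy5. Tested alone with the same fit, after a further normalization between arrays (Aquantile), it gave 0 calls with limma (0%). It had 38 genes at an unadjusted p under 0.05, against 929 for the ratio. A fit with slide as a block called 8 in Cy3, with 279 at an unadjusted p under 0.05. Without the block, the lowest p-values in Cy3 were those of YPR002C-A, with a Cy3 difference of 1.02, and HXT7, with -1.32. HXT7 encodes a high-affinity glucose transporter whose near-identical copy HXT6 may share its signal. Its Cy5 spots were saturated on all 6 arrays, so its ratio followed Cy3 alone and no difference is given for it, although it is counted among the 48. Of the other called genes YAR068W had the largest Cy3 difference, -0.32.

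**Figure D3:**
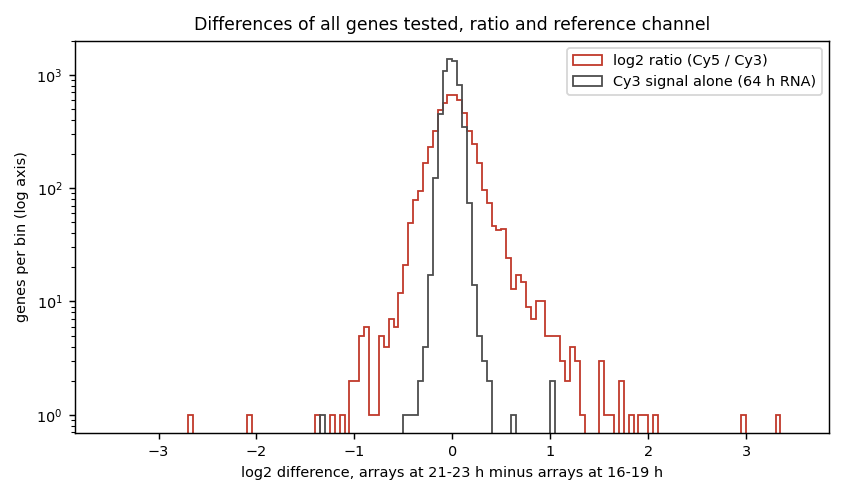
Histogram of the log2 difference, arrays at 21 to 23 h minus arrays at 16 to 19 h, over the 5660 genes tested (log axis of genes per bin). The red outline is the Cy5 over Cy3 ratio and the grey outline the Cy3 signal alone, which is narrower, with HXT7 at -1.32 farthest out.

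Genes of siderophore iron uptake led those that rose. Siderophores are small iron carriers, which yeast captures from its surroundings but does not make. Of 9 tested members 6 rose (66.7%, against 0.848% of all genes tested) and 0 fell, and the median difference was 1.60, against 0.01 over all genes. This list, like the others, was chosen with earlier results of these data known. FIT2, a cell-wall mannoprotein that helps to retain siderophore iron, had log2 ratios of -0.74, -0.64 and -0.42 at 21, 22 and 23 h, against -4.45, -3.84 and -3.47 at 16, 17 and 19 h. The gap between the groups was wider than the spread within either. Its difference was 3.32 ± 0.22 (SE; adjusted p = 0.000498), or 10.0-fold. Its neighbour FIT3, of the same mannoprotein family, had ratios of -1.61, -1.17 and -0.22 at 21, 22 and 23 h, against -3.98, -4.10 and -3.77 at 16, 17 and 19 h, a difference of 2.95 ± 0.29 (SE; adjusted p = 0.00576). The third member, FIT1, had a smaller difference of 0.47 ± 0.14 (SE; adjusted p = 0.136). In bulk RNA a change in the share of cells that express a gene and a change in RNA per cell cannot be told apart.

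The siderophore transporter genes moved the same way. SIT1, which encodes a ferrioxamine transporter, had ratios of -1.26, -1.39 and -1.61 at 21, 22 and 23 h, against -4.02, -3.38 and -2.85 at 16, 17 and 19 h. ARN1 had -2.50, -2.60 and -2.49 at 21, 22 and 23 h, against -4.84, -4.28 and -3.91 at 16, 17 and 19 h. ARN2 had -2.47, -2.68 and -2.55 at 21, 22 and 23 h, against -4.44, -4.06 and -4.02 at 16, 17 and 19 h. For each of these transporters all later arrays were above all earlier ones, and the differences were 2.00 ± 0.25 (SE; adjusted p = 0.0109) for SIT1, 1.81 ± 0.20 (SE; adjusted p = 0.01) for ARN1 and 1.60 ± 0.13 (SE; adjusted p = 0.00147) for ARN2. ENB1, the enterobactin transporter, rose by 0.88 ± 0.13 (SE; adjusted p = 0.0198). The metalloreductase gene FRE3 had a difference of 0.42 ± 0.11 (SE; adjusted p = 0.12) and FRE4 one of -0.13 ± 0.09 (SE; adjusted p = 0.517), with FRE4 above background in Cy5 on 2 of the 3 earlier arrays. ARN1 and ARN2 were called in each of the 6 fits that left out an array, SIT1 in 5 and ENB1 in 3. SIT1 lost its call without the 22 h array, and its difference over the 6 fits was 1.70 to 2.28.

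Of 12 tested genes of reductive iron uptake and iron stores, 2 rose and 0 fell, against 0.848% of all genes, with a median difference of 0.58. With the slide as a block 6 rose, against 2.76% of all genes. FTR1, the high-affinity iron permease, had ratios of -0.72, -0.78 and -0.69 at 21, 22 and 23 h, against -2.17, -1.78 and -1.34 at 16, 17 and 19 h, a difference of 1.03 ± 0.18 (SE; adjusted p = 0.0341). CCC2, the pump that supplies copper to the iron oxidase, had -1.16, -1.23 and -1.33 at 21, 22 and 23 h, against -2.35, -2.07 and -1.89 at 16, 17 and 19 h, a difference of 0.87 ± 0.12 (SE; adjusted p = 0.0198). The groups did not overlap for either gene. FET3, the iron oxidase itself, had a difference of 1.28 ± 0.30 (SE; adjusted p = 0.0853) and was not called. Its Cy5 spots were saturated on all 3 later arrays and its Cy3 spots on 5 of 6, so its Cy5 level was at least 2.20-fold higher. The low-affinity transporter FET4, above background in Cy5 on 2 of the 3 earlier arrays, had -0.28 ± 0.11 (SE; adjusted p = 0.272).

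Of 13 tested iron-sparing genes and iron regulators 1 rose, against 0.848% of all genes, with a list median of 0.05. This was TIS11, whose protein speeds the decay of mRNAs for iron-using proteins. Its ratios were -0.90, -1.54 and -1.25 at 21, 22 and 23 h, against -3.86, -3.01 and -3.07 at 16, 17 and 19 h, and its difference was 2.09 ± 0.24 (SE; adjusted p = 0.0106), or 4.24-fold, with Cy5 above background on 2 of the 3 earlier arrays. The regulators' own genes had differences of 0.23 for AFT1 and -0.08 for AFT2, and GRX4, which relays iron status to Aft1, had -0.63 ± 0.16 (SE; adjusted p = 0.0904). On slide 1 the siderophore list's median moved by 1.31 between 19 and 22 h and by 0.11 between 22 and 23 h (values with no test). Between 16 and 19 h on the same slide the list's median had moved by 0.42. Over those hours SIT1 moved by 1.17 and ARN1 by 0.92, against 1.46 and 1.31 between 19 and 22 h. FTR1 moved by 0.84 between 16 and 19 h and by 0.56 between 19 and 22 h. The lines by hour show these courses, in which the step between 19 and 21 h crosses slides.

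**Figure D4:**
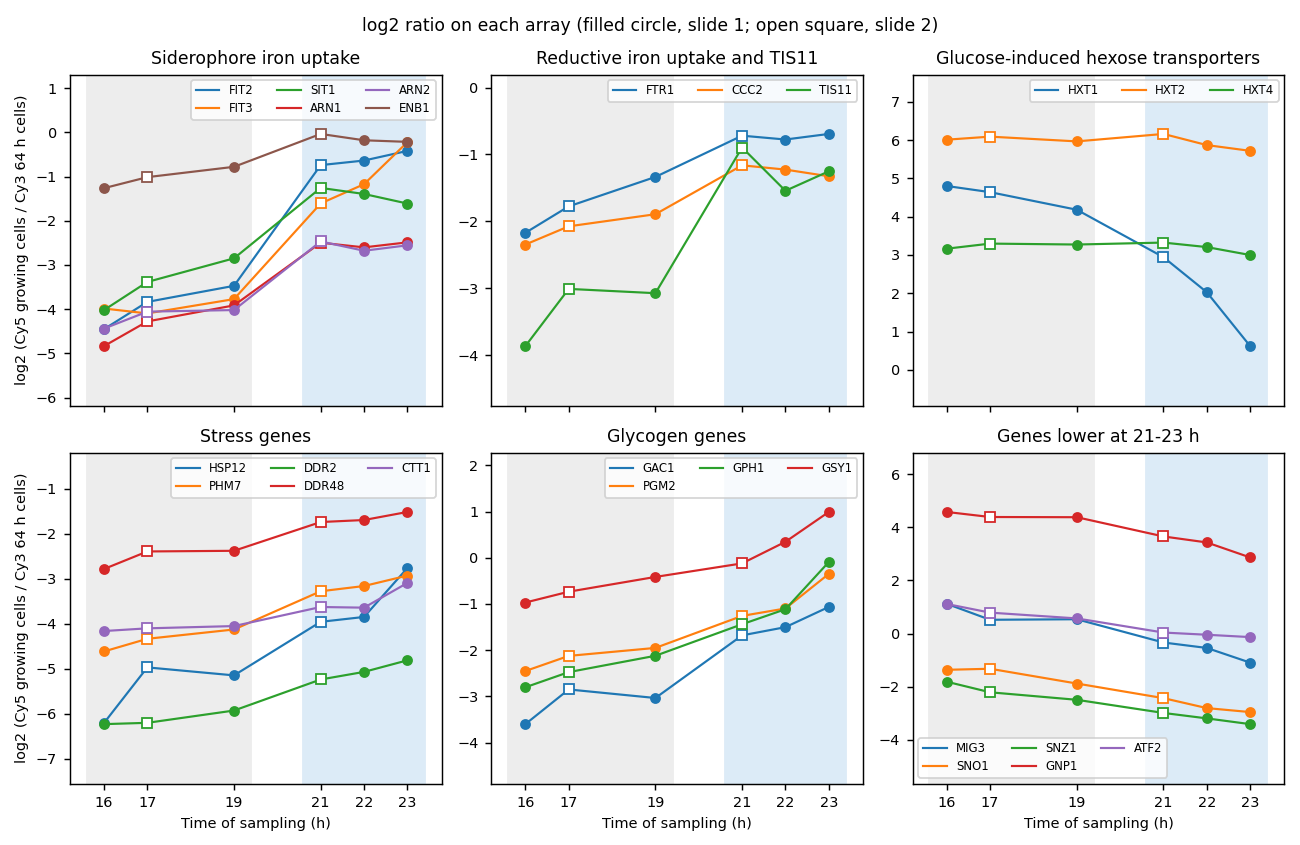
log2 ratio of Cy5 (growing cells) over Cy3 (64 h cells) on each array (vertical axis) against the hour of sampling (horizontal axis), for genes of 6 groups, with hours in their own order. Filled circles are slide 1 and open squares slide 2, the grey band holds 16 to 19 h and the blue band 21 to 23 h. FIT2 stands at -3.47 at 19 h and at -0.74 at 21 h, while HXT1 goes on falling to 0.62 at 23 h.

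Among the 4 hexose transporters induced by glucose, 1 fell, against 0.3% of all genes. HXT1, the low-affinity transporter made when glucose is plentiful, had log2 ratios of 2.94, 2.03 and 0.62 at 21, 22 and 23 h, against 4.80, 4.64 and 4.18 at 16, 17 and 19 h. The later arrays lay below the earlier ones, and the later values were spread wider than the earlier. Its difference was -2.68 ± 0.47 (SE; adjusted p = 0.0341), 6.40-fold lower, and on slide 1 it moved by -2.16 between 19 and 22 h and by -1.41 between 22 and 23 h. The call was lost without the 16, 17, 19 or 22 h array, with a difference of -3.22 to -2.06 over the 6 fits that left out an array. HXT3, the other low-affinity transporter, had 4.50, 3.43 and 2.04 at 21, 22 and 23 h, against 5.58, 5.43 and 5.19 at 16, 17 and 19 h. Its Cy5 spots were saturated on all 3 earlier arrays, so its Cy5 level was at least 4.48-fold lower, with an adjusted p of 0.0835 (0.0351 with the slide as a block). HXT2 and HXT4, transporters of higher affinity, had differences of -0.11 (95% interval -0.38 to 0.17) and -0.07 (-0.31 to 0.18).

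Of 11 tested genes of glucose sensing and repression, 1 fell, against 0.3% of all genes, and 0 rose. MIG3, a repressor gene, had ratios of -0.34, -0.55 and -1.10 at 21, 22 and 23 h, against 1.12, 0.52 and 0.54 at 16, 17 and 19 h, with every later array below every earlier one. Its difference was -1.39 ± 0.22 (SE; adjusted p = 0.0244). The related repressor gene MIG2 had 4.28, 4.02 and 2.88 at 21, 22 and 23 h, against 4.94, 4.56 and 4.50 at 16, 17 and 19 h and did not pass, at -0.94 ± 0.31 (SE; adjusted p = 0.187). The sensor genes had 0.40 for SNF3 and -0.29 for RGT2, and neither passed. Of 4 tested transporters of low or no glucose, 2 were called higher, against 0.848% of all genes: HXT7, whose ratio followed Cy3 alone, and HXT5, which is used by slow-growing cells. HXT5 had -6.61, -6.10 and -5.96 at 21, 22 and 23 h, against -7.07, -7.41 and -6.97 at 16, 17 and 19 h, a difference of 0.93 ± 0.18 (SE; adjusted p = 0.049), with its Cy3 spots saturated on all 6 arrays. It was called in 1 of the 6 fits that left out an array and lost its call under median centring and without background correction. Of the glucose-repressed genes of gluconeogenesis and the glyoxylate cycle, 0 of 19 passed. Under the block 4 were called higher, against 2.76% of all genes.

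Of 30 tested genes of the general stress response, 5 rose (16.7%, against 0.848% of all genes) and 0 fell. The difference was above 0 in all 30, as in 2915 of all 5660 genes, and the list's median was 0.52. With the slide as a block 16 rose, against 2.76% of all genes. HSP12, a membrane-bound small heat-shock protein, had log2 ratios of -3.96, -3.85 and -2.76 at 21, 22 and 23 h, against -6.21, -4.97 and -5.15 at 16, 17 and 19 h. Its lowest array was that of 16 h, and the groups did not overlap. Its Cy3 spots were saturated on 2 of 6 arrays, as were those of DDR2. The difference was 1.92 ± 0.37 (SE; adjusted p = 0.0491), and the call was lost without the 16, 19, 22 or 23 h array, with a difference of 1.54 to 2.16 over the 6 such fits.

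PHM7, a membrane protein gene of this group, had -3.28, -3.16 and -2.93 at 21, 22 and 23 h, against -4.62, -4.34 and -4.13 at 16, 17 and 19 h, a difference of 1.24 ± 0.14 (SE; adjusted p = 0.0106), and was called in all 6 fits that left out an array. DDR2, first known as a DNA damage gene, had -5.24, -5.07 and -4.82 at 21, 22 and 23 h, against -6.24, -6.21 and -5.93 at 16, 17 and 19 h, a difference of 1.08 ± 0.13 (SE; adjusted p = 0.0109). DDR48 and FMP16 also rose, by 0.87 and 0.87. The catalase gene CTT1 did not pass, at 0.65 ± 0.15 (SE; adjusted p = 0.0831), nor did the small heat-shock protein HSP26, at 0.44 ± 0.11 (SE; adjusted p = 0.0988), whose Cy3 spots were saturated on all 6 arrays. The 18 heat shock chaperones, which help proteins to fold, had 0 called and a median of -0.01.

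Glycogen is the main stored sugar polymer of yeast. Its genes had a list median of 0.95, and all 12 tested had a difference above 0. Of these, 2 rose, against 0.848% of all genes, and 8 with the slide as a block, against 2.76% of all genes. GAC1, the subunit that directs a phosphatase to glycogen synthase, had -1.68, -1.50 and -1.07 at 21, 22 and 23 h, against -3.60, -2.85 and -3.03 at 16, 17 and 19 h, a difference of 1.75 ± 0.21 (SE; adjusted p = 0.0109), or 3.35-fold. PGM2, the phosphoglucomutase on the way to glycogen, had -1.26, -1.10 and -0.35 at 21, 22 and 23 h, against -2.45, -2.12 and -1.95 at 16, 17 and 19 h, a difference of 1.27 ± 0.23 (SE; adjusted p = 0.0346). Both sets of arrays stood apart, but PGM2 was called in only 1 of the 6 fits that left out an array. GPH1, glycogen phosphorylase, had -1.44, -1.11 and -0.09 at 21, 22 and 23 h, against -2.80, -2.47 and -2.12 at 16, 17 and 19 h and 1.58 ± 0.31 (SE; adjusted p = 0.0529), just short of the threshold (0.028 with the slide as a block). The glycogen synthase gene GSY1 had 1.11 ± 0.25 (SE; adjusted p = 0.0831) and GSY2 had 0.98 ± 0.23 (SE; adjusted p = 0.0853).

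Between 22 and 23 h on slide 1, GPH1 moved by 1.02 and HSP12 by 1.09. Over the same hour ARN1 moved by 0.11, SIT1 by -0.22 and FIT3 by 0.95. These steps rest on single arrays and were not tested. Trehalose genes had 0 of 7 called, all with a difference above 0 and a median of 0.38, TPS1 being at 0.38 ± 0.14 (SE; adjusted p = 0.224).

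No gene of the 3 respiration lists passed the test. SDH6, an assembly factor of succinate dehydrogenase that is in none of these lists, rose by 0.74 ± 0.10 (SE; adjusted p = 0.0148). It was called in 3 of the 6 fits that left out an array. Of the 15 listed tricarboxylic acid cycle genes, 0 were called and 15 had a difference above 0, with a median of 0.53. With the slide as a block 3 were called higher, against 2.76% of all genes. Of these genes 10 had a saturated Cy3 spot, which limits their ratios. The 21 respiratory chain genes had 0 called, a median of 0.31 and 20 above 0, and the 15 ATP synthase genes had 0 called and a median of 0.34. RIP1, the Rieske iron-sulfur subunit of the chain, had 0.69 ± 0.24 (SE; adjusted p = 0.202) with Cy3 saturated on 2 arrays, and SDH1, a subunit of succinate dehydrogenase, had 0.96 ± 0.26 (SE; adjusted p = 0.12) with Cy3 saturated on all 6 arrays.

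Of the genes that build ribosomes 1 passed the test in the assembly lists. All 55 genes of the small-subunit processome and 40S assembly had a difference below 0, with a median of -0.29 and 0 called. All 65 genes of 60S assembly were below 0 too, with a median of -0.29. Over all 5660 genes tested, 2745 were below 0. Of the 65, 1 was called lower (1.54%, against 0.3% of all genes). This was DBP2, an RNA helicase gene, at -0.52 ± 0.09 (SE; adjusted p = 0.0341). Its ratios were 1.12, 1.05 and 0.98 at 21, 22 and 23 h, against 1.62, 1.54 and 1.56 at 16, 17 and 19 h. With the slide as a block 3 of the 55 and 5 of the 65 were called lower, against 1.11% of all genes. DBP2 was called in 1 of the 6 fits that left out an array and lost its call under median centring. NOP7, a 60S assembly factor, had -0.49 ± 0.12 (SE; adjusted p = 0.0881) and the nucleolar protein gene NSR1 -0.37 ± 0.13 (SE; adjusted p = 0.204). The 81 large-subunit ribosomal protein genes had a median of -0.11 with 0 called, and 43 of them had a saturated Cy5 spot. Their median was -0.22 with the scanner software's ratios, where the median of all genes was -0.02. RPL3, with Cy5 saturated on 2 later and 2 earlier arrays, was at -0.29 ± 0.09 (SE; adjusted p = 0.177), a value that saturation limits.

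**Figure D5:**
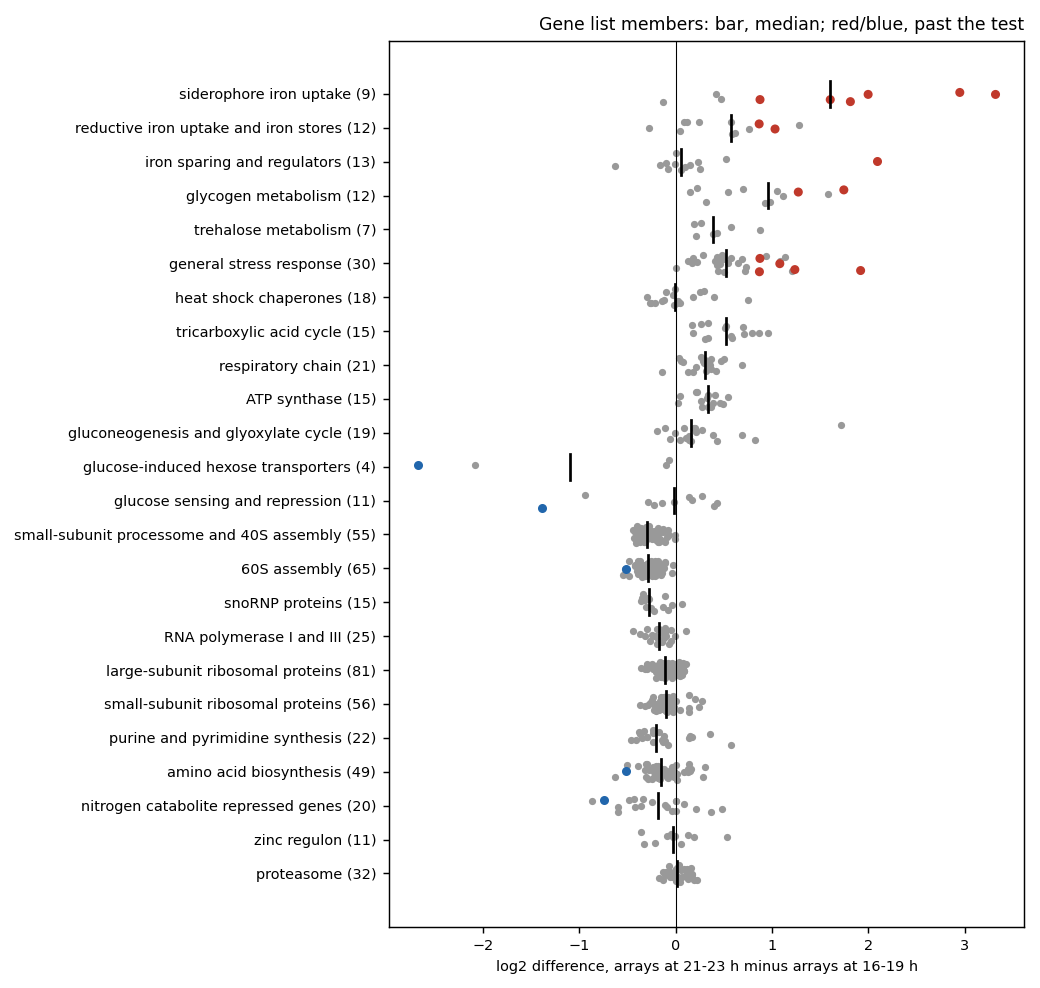
log2 difference, arrays at 21 to 23 h minus arrays at 16 to 19 h, of each tested member of 24 gene lists (points), with the median as a black bar and the number tested in brackets. Red and blue points passed the test. The siderophore list has its median at 1.60 and the glycogen list at 0.95, while all members of both ribosome assembly lists lie below 0.

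Some genes of amino acid, nitrogen and vitamin supply fell. GNP1, a glutamine permease gene, had ratios of 3.66, 3.44 and 2.87 at 21, 22 and 23 h, against 4.59, 4.40 and 4.39 at 16, 17 and 19 h, a difference of -1.13 ± 0.18 (SE; adjusted p = 0.0269). BAP2, a permease for branched-chain amino acids, went the other way, at 0.81 ± 0.10 (SE; adjusted p = 0.0109) with Cy5 above background on 2 of the 3 earlier arrays. Thus 1 of 15 amino acid permease genes rose and 1 fell, against 0.848% and 0.3% of all genes tested. SNO1 and SNZ1, neighbouring genes whose products make vitamin B6, both fell. SNO1 had -2.44, -2.81 and -2.96 at 21, 22 and 23 h, against -1.37, -1.33 and -1.89 at 16, 17 and 19 h, a difference of -1.21 ± 0.18 (SE; adjusted p = 0.0198). SNZ1 had -3.00, -3.20 and -3.42 at 21, 22 and 23 h, against -1.82, -2.22 and -2.50 at 16, 17 and 19 h, a difference of -1.03 ± 0.18 (SE; adjusted p = 0.0341). For both the later arrays lay below the earlier ones. Of 22 genes in the thiamine and vitamin B6 list these 2 were called lower, against 0.3% of all genes, and the other 20 did not pass. The SNO1 call was lost without the 16, 22 or 23 h array, its difference being -1.39 to -1.10 over the 6 such fits.

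Of 20 genes under nitrogen catabolite repression 1 fell, DAL1, the allantoinase gene, at -0.74 ± 0.11 (SE; adjusted p = 0.0198). Of 49 amino acid biosynthesis genes 1 fell, ARG1, argininosuccinate synthetase, at -0.52 ± 0.09 (SE; adjusted p = 0.0339). Of 15 phosphate regulon genes 2 fell, the acid phosphatase genes PHO11 (-0.71) and PHO12 (-0.72), which are near-identical copies whose probes may share signal. Beside these 3 lists, 0.3% of all genes tested fell. Among the 6 fits that left out an array, DAL1 and PHO12 were called in 2 each, and ARG1 and PHO11 in 1 each. The phosphate transporter gene PHO84 had 3.60, 3.41 and 3.34 at 21, 22 and 23 h, against 3.60, 3.58 and 3.57 at 16, 17 and 19 h, with overlapping groups and a difference of -0.13 ± 0.10 (SE; adjusted p = 0.55).

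The remaining genes with large differences had other roles. GSC2, an alternative subunit of glucan synthase in the cell wall, had -3.26, -2.67 and -2.29 at 21, 22 and 23 h, against -4.44, -4.33 and -4.09 at 16, 17 and 19 h, a difference of 1.55 ± 0.22 (SE; adjusted p = 0.0184), and was the 1 of 17 cell wall genes called. YTP1 had -2.33, -2.08 and -1.63 at 21, 22 and 23 h, against -3.93, -3.52 and -3.17 at 16, 17 and 19 h, a difference of 1.53 ± 0.22 (SE; adjusted p = 0.0189). SPS19, a peroxisomal enzyme of fatty acid breakdown, rose by 0.93 and was the 1 of 19 peroxisome and beta-oxidation genes called. Beside the cell wall list and this one, 0.848% of all genes tested rose. Among genes that fell, ATF2, an alcohol acetyltransferase gene, had 0.04, -0.05 and -0.14 at 21, 22 and 23 h, against 1.11, 0.79 and 0.57 at 16, 17 and 19 h, a difference of -0.87 ± 0.14 (SE; adjusted p = 0.0253). PRM5 was at -0.90 ± 0.14 (SE; adjusted p = 0.0198) and YLR108C at -0.998 ± 0.18 (SE; adjusted p = 0.0341).

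Genes not named by the rule and chosen after their values were seen include EEB1, an ester synthase gene, at 1.34 ± 0.18 (SE; adjusted p = 0.0184), whose ratios were already above 0 in the earlier group, and GAD1, glutamate decarboxylase, at 1.12 ± 0.20 (SE; adjusted p = 0.0376). BAT2, a branched-chain aminotransferase gene, fell by 0.62 and MAE1, malic enzyme, by 0.86. In the reference annotation 6 pairs of called genes were neighbours, among them FIT2 with FIT3, SNO1 with SNZ1 and HXT1 with HXT5. HXT1 and HXT5 moved in opposite directions. Another pair, YLL053C and AQY2, overlap in that annotation, so their calls may not be separate.

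Several sets stayed without a call: 0 of 11 zinc regulon genes, 0 of 32 proteasome genes, 0 of 11 histone genes, 0 of 11 cyclin and inhibitor genes and 0 of 21 DNA replication genes. Their medians lay between -0.03 for zinc and 0.16 for histones. The zinc transporter gene ZRT1 was at 0.13 ± 0.12 (SE; adjusted p = 0.642) and the cyclin gene CLN2 at -0.06 ± 0.11 (SE; adjusted p = 0.826). INO1, inositol phosphate synthase, had 0.75 ± 0.17 (SE; adjusted p = 0.0831) and ADH2, the alcohol dehydrogenase that uses ethanol, 0.39 ± 0.14 (SE; adjusted p = 0.224) with Cy3 saturated on 5 of 6 arrays, and neither passed. The actin gene ACT1, whose Cy5 and Cy3 spots were saturated throughout, and the glycolytic enzyme gene TDH3, saturated in Cy5 on all 6, are given no difference.

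Over the called genes as a set, the median deviation from each gene's own mean ran -0.64, -0.50, -0.35, 0.30, 0.40 and 0.75 at 16, 17, 19, 21, 22 and 23 h for the 48 that rose. For the 17 that fell it ran 0.73, 0.39, 0.25, -0.30, -0.41 and -0.57. These values describe genes chosen for that difference. Of the 48, 21 rose at every step of the 6 hours, and of the 17, 6 fell at every step. Of the 48, 46 moved towards the level of the 64 h cells, as did 12 of the 17. But 46 of the 48 had an earlier mean ratio below 0, from where a rise goes towards that level unless it overshoots. The same shares over all genes were not computed, so these counts describe the called genes only.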

How the data were processed

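The deposited scanner files hold a spot intensity for each channel. Per the file headers, the software was Agilent Feature Extraction 10.5.1.1 and the design was annotated on sacCer2. They also hold a log10 ratio of red over green that the software had corrected for background and dye, per the file headers, and other columns that flag spots. The authors' table holds log2 values of 5609 genes. Differences between its columns of 1 slide equalled those of the scanner log10 ratio, turned to log2, within 0.001 for 99.4% of genes, so that alternative is not independent. The files recorded for 20 h and 24 h each matched the other's column and were left out.

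Median signals and backgrounds were corrected with normexp (offset 50) and normalized by loess within arrays in limma 3.58.1 (R 4.3.3). Controls and outlier spots were left out, the 2 spots of a probe averaged, and for 29 genes with several probes the brightest was used. Genes well above background on at least 3 of the 6 arrays in Cy5 or Cy3 were tested, 5660 of 6225 names, of which 5737 matched RefSeq R64. Builds differ, so no coordinates are given. The groups were compared with lmFit and eBayes, with Benjamini-Hochberg adjustment over all genes tested and a threshold of 0.05. The fit was tested on simulated data. A gene saturated in Cy5 on every array of a group gets a bound: the bright group's mean Cy5 signal against the dim group's, after loess and Aquantile, which is open to dye bias. Precision is limited by the number of arrays.

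The members and the 48 gene lists were chosen with earlier results of these data known. Named genes are the 8 largest called differences in each direction (no saturated spot, groups apart, above background on all 6 arrays in Cy3, or in Cy5, and in Cy5 in the group where it is higher), up to 2 called members per list by smallest p, a set of 32 fixed genes, and the 2 smallest p-values in Cy3. Other genes given with values, list members included, were chosen after their values were seen. Alternatives were the slide as a block, slide 1 alone, the scanner ratio, median centring, no background correction, the authors' table, no filter, no saturated genes, a straight line on time and leaving out each array.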

Additional observations from a re-analysis of the deposited data

How the results depend on the processing

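The 65 calls became 219 with the slide as a block, 206 within slide 1, 42 with median centring, 3 with the scanner software's ratios, 0 with the authors' value table (limma; 1357 genes at an unadjusted p under 0.05, smallest adjusted p 0.0956) and 473 with a straight line on time. Leaving out 1 array gave 8 to 272 calls, and leaving out a slide 1 array with the slide as a block, a setting chosen after seeing the data, gave 52 to 86. The cause of these shifts was not tested. The count was 58 without background correction, 68 without the filter on dim genes and 58 without saturated genes. In Cy3 alone, 0 calls became 8 with the slide as a block. Over 52 named genes and 12 settings, 448 of 624 values kept their side of the threshold, 159 lost the call, 17 gained it and 0 reversed. Of 624 list medians, 564 moved by less than the spread between replicates, and 60 by more. The median of all genes moved to -0.02 at most under other scalings. No paired analysis was possible because the labels give no replicate numbers to pair arrays by, and the slide block above is a batch term. The filter on dim signal kept 5660 of 6225 names, and 276 of those kept had a saturated spot.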
